A study of Mus musculus with 4 samples.

Results

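The vascular endothelial growth factor (Vegf) family is described here across the cells of the embryonic mouse knee: 5 ligands (Vegfa, Vegfb, Vegfc, Vegfd and Pgf), 3 receptor tyrosine kinases (Flt1, Kdr and Flt4) and 2 neuropilin co-receptors (Nrp1 and Nrp2). The 10 genes were chosen by name from the 32285 genes of the count matrices, and all 10 were detected in every library. The study asked how glucose uptake and glycolysis bear on the formation of the knee joint. Presumptive knee regions were excised from hindlimb cartilage, dissociated and captured as single cells, and unique molecular identifiers (UMIs) of the 3' ends of transcripts were counted. Of the 4 libraries, the first came from E13.5 embryos that carried no Cre, the E13.5 control. The second came from E14.5 embryos, again without Cre, the E14.5 control. The third library carries the label Prx1cre;Glut1f/f;Glut3f/+ and is also of E14.5 embryos: both alleles of Glut1 and 1 allele of Glut3 are floxed, and it is named the Glut3f/+ library. The fourth, labelled Prx1cre;Glut1f/f;Glut3f/f and of the same age, has both alleles of both genes floxed and is named the Glut3f/f library. The titles of both controls read WT and their genotype reads No cre, and neither mentions floxed alleles. The Prx1-Cre driver acts in limb bud mesenchyme and its descendants, which include cartilage, tendon and connective tissue, and is not known to act in endothelial, blood or muscle cells. Each group had 1 library, and its label does not state how many embryos it holds, so there were no replicates, and every interval given covers counting error only.

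In textbook accounts, Vegfa is released by many tissues and acts on the endothelial kinase Kdr to drive the growth, survival and permeability of vessels, while Flt1 binds Vegfa, Vegfb and Pgf tightly with weak kinase activity and acts in part as a decoy. Vegfc and Vegfd act on Flt4 in lymphatic and sprouting endothelium, and the neuropilins bind both Vegf ligands and class 3 semaphorins. Cartilage has no vessels while it grows, Vegfa is a target of the hypoxia-inducible factors (HIF) in its chondrocytes, and hypertrophic cartilage is known for the Vegfa that draws vessels in before bone forms.

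Kept cells had between 200 and 6000 detected genes and no more than 10% of their UMIs from mitochondrial genes: 12446, 9305, 11264 and 11305 in the E13.5 control, the E14.5 control, the Glut3f/+ library and the Glut3f/f library, the order in which sets of 4 values are given throughout. They held 91829224, 79309777, 92804972 and 88112676 UMIs, with medians of 6176, 7279, 6757 and 6379 UMIs per cell. Levels are CPM, the UMIs of a gene summed over the cells of a class as a share of all UMIs of that class, scaled to counts per 1e+06 UMIs. Slc2a1, which encodes Glut1, gave 75.3, 83.0, 473 and 493 CPM in Matn1-positive chondrocytes and 48.1, 64.7, 339 and 428 CPM over all kept cells. Slc2a3, which encodes Glut3, gave 4.37, 2.78, 3.98 and 1.44 CPM in the same chondrocytes. The UMIs of Slc2a1 were thus higher in both Cre libraries than in either control, against their labels. The sources used here do not give the floxed exons, and UMIs counted at the 3' end may lie outside the deleted part, so the libraries are called by their labels and the extent of deletion is not assumed. Xist was found in 64.7%, 0.172%, 92.2% and 91.2% of the cells and Y-linked transcripts in 18.4%, 65.9%, 0.0355% and 0.0265%. The E14.5 control was thus male and both Cre libraries female, and sex and genotype cannot be told apart in any comparison between them. Between 24 and 37 cell barcodes were shared by each pair of libraries, at most 0.355% of the smaller one.

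Cells were sorted into classes by lists of markers, none of which holds a Vegf family member. The labels call all cells interzone cells, but only 1387, 541, 565 and 167 cells met the interzone gate, at least 2 UMIs of Gdf5 and at least 3 of 5 interzone markers. They made up 11.1, 5.81, 5.02 and 1.48 percent of the kept cells. Chondrocytes, with at least 6 of 10 cartilage markers, were split by stage at 2 UMIs: 1260, 1141, 1402 and 1875 were Matn1-low, 1318, 4321, 4329 and 5274 Matn1-positive, 570, 167, 229 and 325 Ihh-positive and 38, 3, 62 and 48 Col10a1-positive. Ihh marks prehypertrophic and Col10a1 hypertrophic chondrocytes. All 10 cartilage markers were detected in the Matn1-low class of the E13.5 control, at a sum of 4531 CPM, but the genes that led it by fold over other cells were mostly neutrophil genes, among them S100a8, S100a9 and Ngp, named after their values were seen. The effect of such transcripts on that class was not tested. Endothelial cells, with at least 3 of 7 endothelial markers, numbered 63, 33, 66 and 76. All 7 endothelial markers were detected in the endothelial gate of every library, with summed levels of 4084, 4349, 4542 and 5589 CPM, and Egfl7 was the most abundant of them at 938, 1159, 1054 and 1394 CPM. Transcripts of the 10 chondrocyte markers summed to 325, 2254, 1419 and 755 CPM in the same gate, led by Col2a1, and were highest in the E14.5 control, which had only 33 endothelial cells. The mural markers summed to 38.5, 34.2, 104 and 69.6 CPM there and the erythroid markers to 102, 55.6, 34.7 and 74.2 CPM. Erythroid cells were used as the measure of free RNA in the droplets.

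On GRCm38 the ligands lie at chr17:46016993-46032369 (Vegfa, ENSMUSG00000023951, minus strand), chr19:6982473-6987651 (Vegfb, ENSMUSG00000024962, minus), chr8:54077606-54187096 (Vegfc, ENSMUSG00000031520, plus), chrX:164373378-164402650 (Vegfd, ENSMUSG00000031380, plus) and chr12:85166635-85177790 (Pgf, ENSMUSG00000004791, minus). The receptors lie at chr5:147561604-147726011 (Flt1, ENSMUSG00000029648, minus), chr5:75932827-75978458 (Kdr, ENSMUSG00000062960, minus) and chr11:49609263-49652739 (Flt4, ENSMUSG00000020357, plus). Nrp1 (ENSMUSG00000025810) lies at chr8:128358604-128503363 and Nrp2 (ENSMUSG00000025969) at chr1:62703285-62818695, both on the plus strand. Vegfd, on the X chromosome, is the only member whose comparison between male and female libraries also concerns a sex chromosome. Nrp2 is overlapped by the antisense gene Gm29083, and whether any of its UMIs were assigned wrongly is not known.

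Vegfa, the principal angiogenic ligand, was detected broadly in skeletal cells. In Matn1-positive chondrocytes it stood at 49.2 CPM (95% interval 45.3 to 53.5) in the E13.5 control, 65.0 (62.6 to 67.5) in the E14.5 control, 99.4 (96.4 to 102) in the Glut3f/+ library and 88.6 (86.0 to 91.2) in the Glut3f/f library. The 4 intervals did not overlap: the E13.5 control was lowest and the Glut3f/+ library highest. Matn1-low chondrocytes followed the same order of controls below Cre libraries, at 53.8, 75.0, 106 and 112 CPM. Ihh-positive chondrocytes held less, 27.6, 31.0, 60.5 and 59.1 CPM, and again the values of both Cre libraries lay above those of both controls. Col10a1-positive chondrocytes gave 37.1, 58.4 and 33.2 CPM in the E13.5 control, the Glut3f/+ library and the Glut3f/f library from 19, 67 and 28 UMIs, and the E14.5 control had only 3 such cells. Interzone cells gave 67.3, 80.8, 81.2 and 89.7 CPM, a spread that was narrower among the 3 libraries of E14.5.

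Outside cartilage, Vegfa was at 78.1, 60.8, 51.1 and 96.4 CPM in osteogenic cells, where the E14.5 control and the Glut3f/+ library were the lowest. Tendon cells gave 50.8, 87.6, 60.5 and 71.6 CPM, Dcn-positive fibroblasts 51.0, 80.3, 74.3 and 97.2 CPM and skeletal muscle 23.7, 35.1, 35.3 and 52.2 CPM. Muscle was low in all 4 libraries beside tendon and fibroblasts. Ungated cells met no gate, or met both the tendon and the osteogenic gate. They held 58.8, 78.1, 69.4 and 112 CPM, highest in the Glut3f/f library. Macrophages gave 36.5, 15.0, 15.2 and 49.0 CPM from 7, 8, 11 and 19 UMIs. Endothelial cells were near the bottom of the range, at 8.38, 4.28, 28.4 and 16.6 CPM from 5, 1, 18 and 11 UMIs. Erythroid cells gave 11.6, 14.1, 45.3 and 20.5 CPM, taken here as the level of free RNA, and endothelial levels were not above it in any library. The erythroid gates themselves differed: their all-gene median was 1.41 log2 units higher in the Glut3f/+ library and 1.01 higher in the Glut3f/f library than in the E14.5 control, and relative to that median Vegfa differed by 0.28 and -0.47.

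The order of Vegfa levels within a library, over classes with at least 50 cells as in all orders given, shows where neighbours were separated by more than counting error. In the E13.5 control, osteogenic and interzone cells led and did not differ from each other beyond it, a group of ungated cells, Matn1-low chondrocytes, fibroblasts, tendon and Matn1-positive chondrocytes followed, and Ihh-positive chondrocytes and muscle came lower. The E14.5 control had tendon, interzone, fibroblast, ungated and Matn1-low cells together at the top, Matn1-positive chondrocytes and osteogenic cells below them, then muscle and Ihh-positive chondrocytes. For the Glut3f/+ library, Matn1-low and Matn1-positive chondrocytes led, undivided, and stood beyond counting error above interzone cells, the next class. Among Glut3f/f cells, neighbours from ungated cells at the top down to macrophages could not be separated. Only in the Glut3f/+ library did chondrocytes alone head the order.

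**Figure D1:**
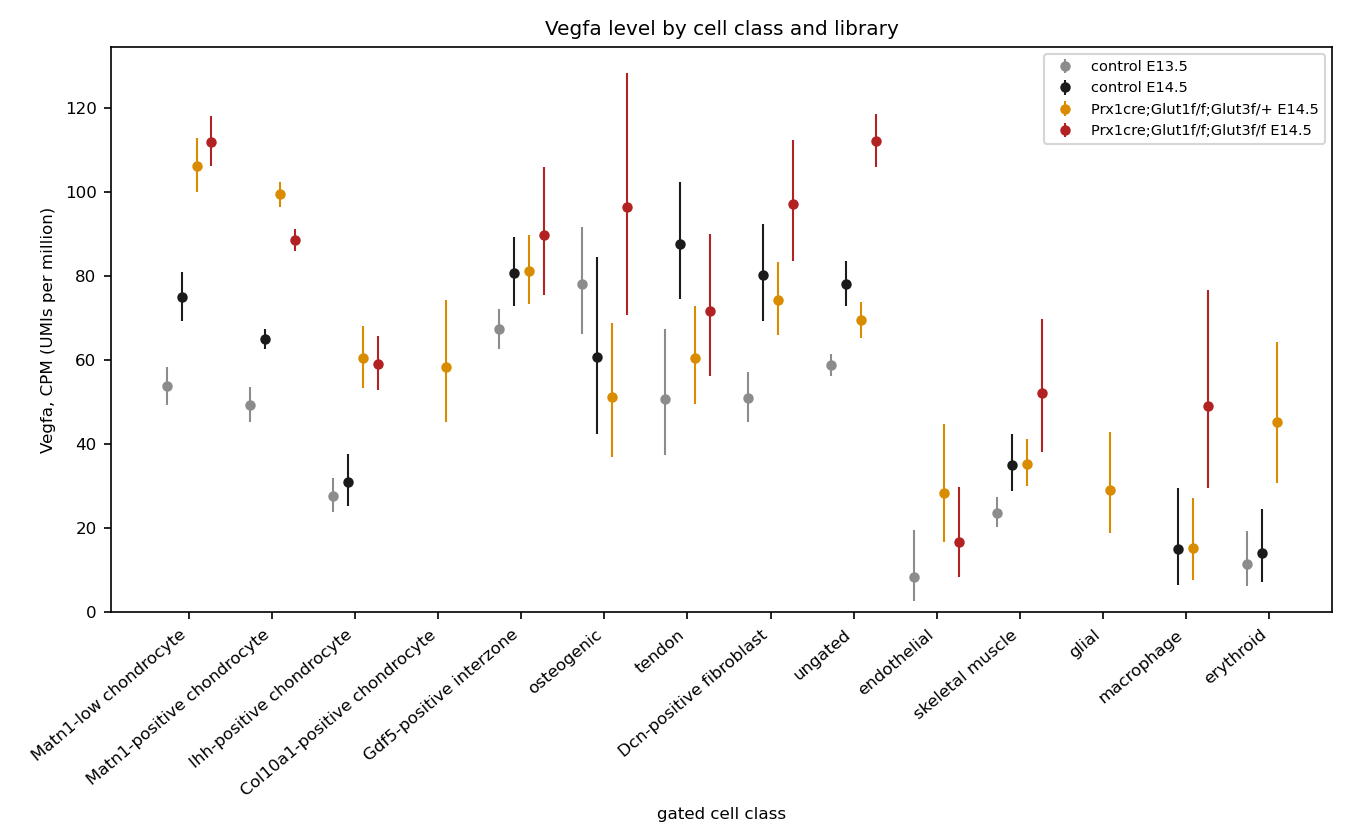
Vegfa in CPM (vertical axis) by cell class (horizontal axis), 1 point per library with at least 50 cells of the class. Bars are exact Poisson 95% intervals. In Matn1-positive chondrocytes the points lie at 49.2, 65.0, 99.4 and 88.6 CPM from the E13.5 control to the Glut3f/f library. Endothelial cells lie at 8.38, 28.4 and 16.6 CPM in the E13.5 control, the Glut3f/+ library and the Glut3f/f library. The E14.5 control, with 33 endothelial cells, has no point there.

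Vegfa UMIs were found in 31.9%, 41.1%, 49.97% and 47.8% of Matn1-positive chondrocytes, with median depths of 7518, 8543, 8740.0 and 8396 UMIs. Erythroid cells, with medians of 7566, 8758, 8155 and 7823 UMIs, gave 6.85%, 8.79%, 26.2% and 11.9%. At an equal depth of 2000 UMIs per cell the expected shares were 9.13%, 12.1%, 16.5% and 15.5% in these chondrocytes and 1.52%, 1.71%, 6.14% and 2.14% in erythroid cells. Every chondrocyte share was therefore above the erythroid share of its library, by the smallest factor in the Glut3f/+ library. Single cells with at least 6 Vegfa UMIs numbered 5, 17, 108 and 91 over all kept cells, and 71 of the 108 and 36 of the 91 also held a Car9 UMI, against 0 of 5 and 3 of 17 in the controls. Both the number of such cells and their overlap with Car9, a HIF target that encodes a carbonic anhydrase, were thus greater in the Cre libraries. The cells were deep, with median totals of 17582, 14547, 15082 and 13090.0 UMIs. Cells with a Car9 UMI were also more common among Matn1-positive chondrocytes of the Cre libraries. Whether the overlap exceeds what that share and the depth would give was not tested.

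Across chondrocyte stages, which asks how the ligand changes toward hypertrophy, Vegfa CPM fell from the Matn1-positive to the Ihh-positive class in all 4 libraries. The log2 ratios were -0.83 (95% counting interval -1.08 to -0.59) in the E13.5 control, -1.07 (-1.36 to -0.78) in the E14.5 control, -0.72 (-0.90 to -0.54) in the Glut3f/+ library and -0.58 (-0.75 to -0.42) in the Glut3f/f library. Relative to the median of all genes they were -0.75, -0.93, -0.61 and -0.40. Ihh-positive cells were deeper, with medians of 10820.5, 18938, 18952 and 16033 UMIs against 7518, 8543, 8740.0 and 8396. Counted per cell, Vegfa gave 0.330, 0.623, 1.16 and 1.02 UMIs in Ihh-positive and 0.428, 0.628, 0.986 and 0.852 in Matn1-positive chondrocytes. The count per cell was lower in Ihh-positive cells at E13.5, nearly equal in the E14.5 control and higher in Ihh-positive cells of both Cre libraries, so the fall at E14.5 holds for the share of the transcriptome and not for the count per cell.

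Against the E14.5 control, Vegfa in Matn1-positive chondrocytes was higher by 0.61 log2 units (0.54 to 0.68) in the Glut3f/+ library and by 0.45 (0.38 to 0.52) in the Glut3f/f library, or 0.71 and 0.62 above the median of all genes. Matn1-low chondrocytes gave 0.50 (0.36 to 0.65) and 0.58 (0.44 to 0.72), with 0.63 and 0.73 above the median. As counted, the ratio was largest in Ihh-positive chondrocytes, 0.96 (0.63 to 1.30) and 0.93 (0.61 to 1.26), or 1.02 and 1.12 above the median. Without the 5% deepest cells the Glut3f/f value was 0.52, below the Matn1-low value as counted. The Ihh-positive level of the Glut3f/+ library was not far above its erythroid level, and the part of free RNA in that ratio was not tested. All 3 stages were thus higher in both Cre libraries, while none of the 6 ratios reached 1, the threshold of 2-fold used for counts of genes. Interzone cells differed less, by 0.01 (-0.20 to 0.22) and 0.15 (-0.14 to 0.44), both within counting error. Whether the difference between chondrocytes and interzone cells exceeds chance was not tested.

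The other classes split the Cre libraries. Vegfa in the Glut3f/+ library was lower in tendon, -0.53 (-0.90 to -0.17), and in ungated cells, -0.17 (-0.30 to -0.04). The Glut3f/f library was higher in ungated cells, 0.52 (0.39 to 0.65), in muscle, 0.57 (0.04 to 1.09), and in macrophages, 1.71 (0.45 to 3.11, 19 against 8 UMIs). Of those 19 UMIs, 6 were in 1 cell, which the interval does not allow for. Prx1-Cre is not known to act in muscle or macrophages, and recombination there was not measured. Fibroblasts gave -0.11 and 0.28, and osteogenic cells -0.25 and 0.66. Set directly against each other, the Glut3f/f library over the Glut3f/+ library gave -0.17 (-0.23 to -0.11) in Matn1-positive chondrocytes, 0.08 (-0.04 to 0.19) in Matn1-low and -0.03 (-0.27 to 0.20) in Ihh-positive chondrocytes. Of the 3 stages, only the Matn1-positive one separated these libraries beyond counting error, with the lower level in the Glut3f/f library. That library was the higher one in ungated cells, 0.69 (0.57 to 0.81), fibroblasts, 0.39 (0.11 to 0.66), osteogenic cells, 0.91 (0.29 to 1.55), muscle, 0.57 (0.06 to 1.05), and macrophages, 1.69 (0.54 to 2.91), where the same cell was counted. Muscle and macrophages of the Glut3f/+ library were below its erythroid level, and macrophages of the E14.5 control were close to theirs, so these ratios were taken over levels that could not be told apart from free RNA. Muscle of the E14.5 control was above it. Osteogenic and tendon cells of the Glut3f/+ library were not far above its erythroid level, and the part of free RNA in their ratios was not tested.

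Between E13.5 and E14.5 in the controls, Vegfa was higher at the later age in Matn1-positive chondrocytes by 0.40 (0.27 to 0.53), in Matn1-low chondrocytes by 0.48 (0.31 to 0.65), in fibroblasts by 0.66 (0.39 to 0.92) and in tendon by 0.79 (0.31 to 1.28). Ihh-positive chondrocytes differed by 0.17 (-0.19 to 0.52), within counting error. The E13.5 control held cells of both sexes and the E14.5 control was male, so age and sex cannot be told apart here.

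Vegfb, a ligand of Flt1 linked to heart and muscle, was found in every gated class, cartilage and muscle alike. Matn1-positive chondrocytes held 103, 68.7, 83.1 and 82.9 CPM and Ihh-positive chondrocytes 80.5, 44.5, 56.4 and 66.6 CPM. The E13.5 control was the highest of the 4 libraries in both stages. Skeletal muscle gave 78.3, 123, 117 and 108 CPM, osteogenic cells 131, 88.7, 99.9 and 113 CPM and fibroblasts 109, 97.6, 99.6 and 105 CPM. Muscle was the leading class of the E14.5 control, beyond counting error above fibroblasts, and in the Glut3f/+ library it led without being separable from osteogenic cells. Osteogenic cells came first in the E13.5 control and the Glut3f/f library, not separable from tendon and muscle in turn. Endothelial cells, at 35.2, 34.2, 41.0 and 37.8 CPM, and erythroid cells, at 22.4, 17.6, 49.7 and 33.3 CPM, were below muscle, osteogenic cells and fibroblasts in every library.

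The stage ratio of Vegfb, Ihh-positive over Matn1-positive, was -0.36, -0.63, -0.56 and -0.32, lower in Ihh-positive cells of every library as counted. When the gates were set after thinning each cell to 2000 UMIs, the Glut3f/f value turned to 0.05, while the controls and the Glut3f/+ library stayed below 0. Against the E14.5 control, Matn1-positive chondrocytes had 0.27 (0.20 to 0.35) and 0.27 (0.20 to 0.34), and Ihh-positive chondrocytes 0.34 (0.04 to 0.65) and 0.58 (0.31 to 0.87). Both stages were thus above the control in both Cre libraries. Whether these ratios differ from those of Vegfa was not tested. The Ihh-positive level of the Glut3f/+ library was close to its erythroid level, and the part of free RNA in that ratio was not tested. With age in the controls, Vegfb fell by 0.59 in Matn1-positive and by 0.86 in Ihh-positive chondrocytes and rose by 0.65 (0.46 to 0.84) in muscle.

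Vegfc, the main ligand of Flt4, was scarce outside vessels. Endothelial cells gave 38.5, 4.28, 26.8 and 43.9 CPM from 23, 1, 17 and 29 UMIs. The E14.5 control stood low with a single UMI. Tendon cells gave 14.8, 6.69, 10.5 and 9.81 CPM and Matn1-positive chondrocytes 2.18, 1.37, 1.35 and 1.30 CPM. Endothelial cells ranked first, beyond counting error above tendon, in the 3 libraries with at least 50 endothelial cells. The Glut3f/f library over the E14.5 control gave 3.36 in endothelium, with a counting interval of 0.77 to 8.71, and the E14.5 over the E13.5 control -3.17 (-8.54 to -0.55). Both ratios rest on the single UMI of the E14.5 control.

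Vegfd, the second ligand of Flt4, was near the limit of detection. Fibroblasts gave 1.38, 5.35, 5.56 and 6.34 CPM from 8, 13, 22 and 12 UMIs, and they ranked above ungated cells beyond counting error in the E14.5 control and the Glut3f/+ library. Endothelial cells had 0 UMIs in all 4 libraries, where the floor of 3 UMIs would be 5.03, 12.8, 4.73 and 4.54 CPM. The E13.5 control was lowest in fibroblasts, and the ratio of E14.5 to E13.5 was 1.96 (0.58 to 3.44). Matn1-positive chondrocytes went the other way, -0.96 (-1.70 to -0.18) from 45 against 24 UMIs, and Matn1-low chondrocytes gave -0.74 (-1.88 to 0.31). The fibroblasts of the 3 libraries of E14.5 did not differ beyond counting error, although Vegfd is X-linked and the libraries differ in sex.

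Pgf, the placental growth factor that binds Flt1, marked osteogenic and mural cells. Osteogenic cells gave 49.6, 48.7, 34.5 and 10.3 CPM from 96, 28, 29 and 5 UMIs. The Glut3f/f library was the low one. Mural cells gave 67.6, 45.0, 25.4 and 55.1 CPM, though from 11, 18, 27 and 13 cells. Muscle gave 29.7, 23.4, 16.2 and 15.1 CPM, fibroblasts 6.20, 16.1, 7.58 and 7.92 CPM and Matn1-positive chondrocytes 7.16, 2.16, 1.68 and 1.62 CPM. Over all kept cells Pgf stood at 12.7, 6.18, 5.29 and 3.37 CPM, highest in the E13.5 control. Osteogenic cells ranked above muscle beyond counting error in the first 3 libraries, whereas tendon, muscle and osteogenic cells of the Glut3f/f library could not be separated.

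In osteogenic cells, Pgf in the Glut3f/f library over the E14.5 control was -2.25 (-3.98 to -0.86), and in the Glut3f/+ library -0.50 (-1.30 to 0.31). The first was beyond counting error and the second was not. The osteogenic gates held 219, 64, 105 and 76 cells, and the part of cell composition was not tested. Fibroblasts were lower in both Cre libraries, at -1.08 (-1.82 to -0.36) and -1.02 (-1.98 to -0.13). Across the ages, Pgf in Matn1-positive chondrocytes was -1.73 (-2.18 to -1.28) and in fibroblasts 1.37 (0.68 to 2.07). Matn1-low chondrocytes gave -0.69 (-1.28 to -0.12) and Ihh-positive chondrocytes 0.02 (-1.88 to 1.71). Among chondrocyte stages, Pgf was thus lower at E14.5 beyond counting error in Matn1-positive and Matn1-low cells, while the Ihh-positive interval was wide. Interzone cells and muscle also gave less, 7.30 and 4.10 CPM and 29.7 and 23.4 CPM at E13.5 and E14.5. Fibroblasts were higher, as were tendon cells, at 3.17 and 9.48 CPM from 3 and 17 UMIs. By stage, Ihh-positive over Matn1-positive, the ratios were -2.29, -0.53, -1.30 (-3.61 to 0.31) and -0.59, and the Glut3f/+ value turned to 0.41 when the gates were set after thinning.

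The receptor kinases belonged to the endothelium. Flt1, which binds Vegfa, Vegfb and Pgf, stood in endothelial cells at 292 CPM (249.9 to 338) in the E13.5 control, 299 (233 to 378) in the E14.5 control, 483 (430.4 to 540.2) in the Glut3f/+ library and 459 (408 to 513) in the Glut3f/f library. Both Cre libraries lay above both controls, and their intervals did not overlap with those of the controls. Mural cells gave 60.1, 24.5, 25.4 and 15.7 CPM, and the skeletal classes together only 0.224, 0.506, 0.399 and 0.364 CPM. Endothelial cells held 74.4%, 54.7%, 83.4% and 80.6% of all Flt1 UMIs.

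Kdr, the main signalling receptor of Vegfa, gave 369 CPM (322 to 421), 406 (329 to 497), 458 (407 to 514) and 422 (374 to 475) in the endothelium of the E13.5 control, the E14.5 control, the Glut3f/+ library and the Glut3f/f library. These 4 intervals overlapped. Low levels appeared in tendon, 1.06, 7.25, 9.99 and 10.8 CPM, and fibroblasts, 1.72, 2.88, 6.07 and 6.34 CPM, both lowest at E13.5, and no Kdr UMI was found in mural cells. The endothelial gate held 76.1%, 54.6%, 71.4% and 74.6% of all Kdr UMIs, so a larger part lay elsewhere in the E14.5 control. Ungated cells over the ages rose by 1.92 (0.99 to 2.87). Cells 1 marker short of the endothelial gate numbered 94 and 54 in the E13.5 and E14.5 controls. Their part in this rise was not tested.

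Flt4, the receptor of Vegfc and Vegfd, gave 73.7, 68.4, 52.1 and 71.1 CPM in endothelial cells, which did not differ beyond counting error, and 57.9%, 64.0%, 64.7% and 81.0% of its UMIs lay there. Outside it, Ihh-positive chondrocytes of the E13.5 control held 14 UMIs (2.06 CPM) and Col10a1-positive chondrocytes 5 (9.76 CPM). These few chondrocyte UMIs were seen at E13.5, and the Ihh-positive class of the later libraries gave 2, 1 and 1 UMIs. In the order of classes, each of Flt1, Kdr and Flt4 had endothelium first and beyond counting error above the next class in the 3 libraries with at least 50 endothelial cells.

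Shares of endothelial cells with a UMI were 68.3%, 63.6%, 81.8% and 80.3% for Flt1, against 0.685%, 1.10%, 0% and 0% of erythroid cells. For Kdr they were 79.4%, 66.7%, 86.4% and 84.2%, against 0%, 0%, 1.54% and 0%. Flt4 was found in 34.9%, 27.3%, 33.3% and 39.5%, against 0%, 0%, 0% and 0%. The median depths were 8260.0, 5614, 7858 and 6616 UMIs in endothelial and 7566, 8758, 8155 and 7823 in erythroid cells. At 2000 UMIs per cell, over the 56.0, 24.0, 62.0 and 69.0 endothelial cells that reach this depth, the shares became 41.5%, 47.4%, 54.7% and 56.8% for Flt1 and 50.6%, 51.5%, 57.6% and 53.3% for Kdr. Both were lowest at E13.5, whereas at full depth the E14.5 control was lowest, and the 2 sets of cells differ. Endothelial shares were far above the erythroid shares for all 3 receptors in every library.

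Flt1 and Kdr were found together in 40 of 63 endothelial cells of the E13.5 control, 18 of 33 of the E14.5 control, 54 of 66 of the Glut3f/+ library and 56 of 76 of the Glut3f/f library. Most endothelial cells thus showed both. Of the 22, 9, 22 and 30 cells with Flt4, 21, 8, 22 and 28 also held Kdr. Prox1, the transcription factor of lymphatic identity, was found in 3, 1, 2 and 2 endothelial cells and the hyaluronan receptor Lyve1 in 0, 0, 0 and 1. Most endothelial cells with Flt4 therefore held Kdr and no Prox1 UMI at this depth. Prox1 and Lyve1 were looked at after their values were seen.

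**Figure D2:**
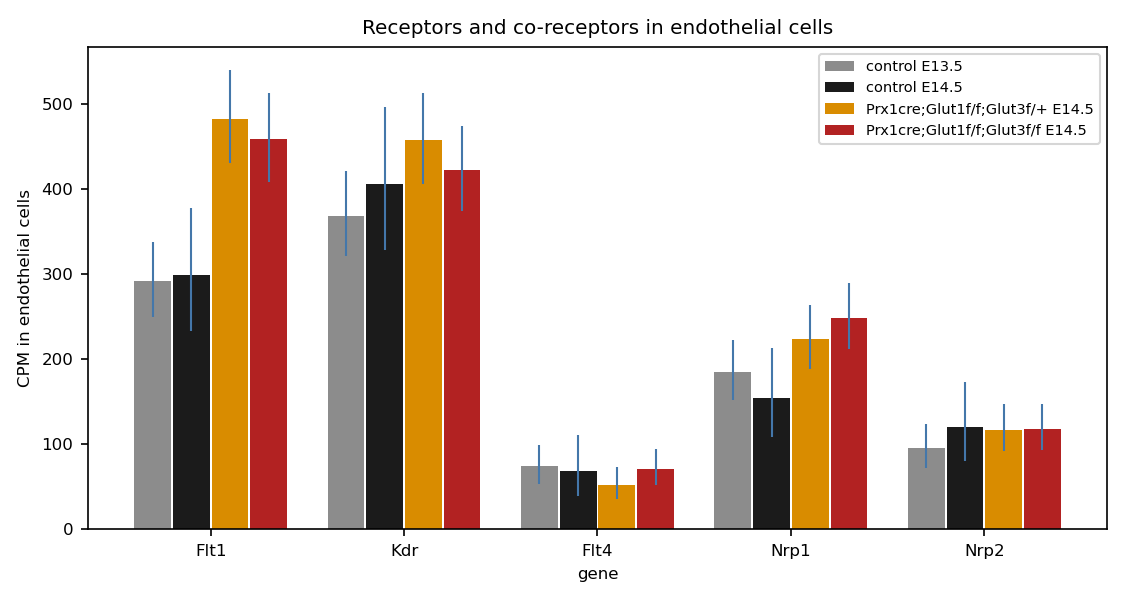
Flt1, Kdr, Flt4, Nrp1 and Nrp2 in endothelial cells in CPM (vertical axis) for the 4 libraries, with exact Poisson 95% intervals as bars. Flt1 lies at 292, 299, 483 and 459 CPM, higher in both Cre libraries, and Kdr at 369, 406, 458 and 422 CPM with overlapping intervals.

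Against the E14.5 control, endothelial Flt1 was higher by 0.69 (0.31 to 1.09) in the Glut3f/+ library and 0.62 (0.24 to 1.01) in the Glut3f/f library, or 0.64 and 0.53 above the all-gene median. Kdr differed by 0.17 (-0.17 to 0.52) and 0.06 (-0.29 to 0.41), and Flt4 by -0.39 (-1.30 to 0.57) and 0.06 (-0.79 to 0.97). As counted, Flt1 alone of the kinases thus differed beyond counting error, and recombination in endothelial cells was not measured. With the mean of CPM over cells, Kdr was 534 and 602 CPM in the Cre libraries, above their intervals as counted. The E14.5 control stayed within its own interval for Kdr. The E14.5 control also had the most chondrocyte transcripts in its endothelial gate, and their part in the difference was not tested. The Glut3f/f over the Glut3f/+ library gave -0.07 (-0.31 to 0.16) for Flt1 and -0.12 (-0.36 to 0.13) for Kdr, within counting error. In the controls, E14.5 over E13.5 gave 0.04 (-0.38 to 0.45) for Flt1 and 0.14 (-0.22 to 0.49) for Kdr, also within it.

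Nrp1, the co-receptor that binds Vegfa and semaphorin 3A, was highest in endothelium at 184, 154, 224 and 248 CPM. Mural cells gave 97.7, 90.01, 94.4 and 78.7 CPM and fibroblasts 27.2, 77.0, 84.2 and 84.0 CPM. Fibroblasts of the E13.5 control were low beside the other 3 libraries. Glial cells gave 58.4, 52.7, 26.8 and 14.3 CPM and macrophages 41.7, 43.2, 31.8 and 18.1 CPM. Chondrocytes held little, 10.3, 9.24, 10.2 and 8.69 CPM in the Matn1-positive and 8.37, 14.6, 12.7 and 5.71 CPM in the Ihh-positive class. Erythroid cells gave 2.49, 0, 11.7 and 0 CPM from 3, 0, 8 and 0 UMIs, so in the Glut3f/+ library these chondrocytes could not be told apart from free RNA. Among classes with at least 50 cells, endothelium ranked above fibroblasts, and fibroblasts above the next class, beyond counting error in the E13.5 control and both Cre libraries.

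Endothelial Nrp1 was higher than in the E14.5 control by 0.54 (0.01 to 1.11) in the Glut3f/+ library and 0.69 (0.16 to 1.25) in the Glut3f/f library. In Ihh-positive chondrocytes it was -0.20 (-0.78 to 0.38) and -1.36 (-2.05 to -0.68), lower beyond counting error in the Glut3f/f library from 32 against 49 UMIs. With age, Nrp1 rose in fibroblasts by 1.501 (1.19 to 1.82), in tendon by 1.74 (0.49 to 3.27), in osteogenic cells by 1.12 (0.28 to 1.94) and in ungated cells by 0.99 (0.81 to 1.16). Matn1-low and Ihh-positive chondrocytes rose as well, by 0.76 (0.36 to 1.17) and 0.80 (0.22 to 1.38). Matn1-positive chondrocytes, at 10.3 and 9.24 CPM at E13.5 and E14.5, and endothelium, at 184 and 154 CPM, did not rise. By stage, Ihh-positive over Matn1-positive chondrocytes, the ratios were -0.30, 0.66, 0.32 and -0.61, and the E14.5 control value of 0.66 turned to -0.44 when the gates were set after thinning.

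Nrp2, the co-receptor of Vegfc and of semaphorins 3C and 3F, was highest in osteogenic cells of all 4 libraries, at 283, 402, 373 and 469.6 CPM, beyond counting error above the next class. Within cartilage it fell with stage, from 124, 137, 99.4 and 107 CPM in Matn1-low through 107, 66.5, 45.6 and 44.2 CPM in Matn1-positive to 62.1, 14.3, 14.6 and 7.32 CPM in Ihh-positive chondrocytes. Its Ihh-positive level was below the erythroid one in both Cre libraries and close to it in the E14.5 control, so the size of the fall at E14.5 could not be told apart from free RNA. Interzone cells gave 40.5, 75.6, 61.1 and 99.9 CPM and fibroblasts 104, 85.2, 52.6 and 61.3 CPM. Endothelial cells held 95.5, 119.7, 117 and 118 CPM. Muscle, at 9.51, 6.17, 5.04 and 1.16 CPM, was below the erythroid level of 28.2, 11.7, 26.3 and 15.4 CPM in every library. Macrophages gave 41.7, 63.9, 169 and 114 CPM from 8, 34, 122 and 44 UMIs, highest in the Glut3f/+ library.

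The stage ratio of Nrp2, Ihh-positive over Matn1-positive, was -0.78 (-0.94 to -0.62), -2.22 (-2.66 to -1.80), -1.65 (-2.03 to -1.29) and -2.59 (-3.08 to -2.15). Against the E14.5 control, Matn1-positive chondrocytes had -0.55 (-0.63 to -0.46) in the Glut3f/+ library and -0.59 (-0.67 to -0.51) in the Glut3f/f library, or -0.45 and -0.42 relative to the all-gene median. Matn1-positive Nrp2 was thus lower in both Cre libraries where Vegfa was higher. Matn1-low chondrocytes gave -0.47 and -0.36 and fibroblasts -0.70 and -0.48, whereas macrophages gave 1.40 (0.84 to 1.99) and 0.83 (0.15 to 1.52). Interzone cells had -0.31 (-0.53 to -0.08) and 0.40 (0.12 to 0.68), with opposite signs in the Cre libraries. Ihh-positive chondrocytes had 0.02 and -0.97, of which the second turned to 1.48 with gates set after thinning and to 0.25 without the 5% deepest cells. Over the ages Nrp2 in Ihh-positive chondrocytes fell by 2.12, in Matn1-positive by 0.68 and in tendon by 1.09, and interzone cells rose by 0.90 (0.70 to 1.10).

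**Figure D3:**
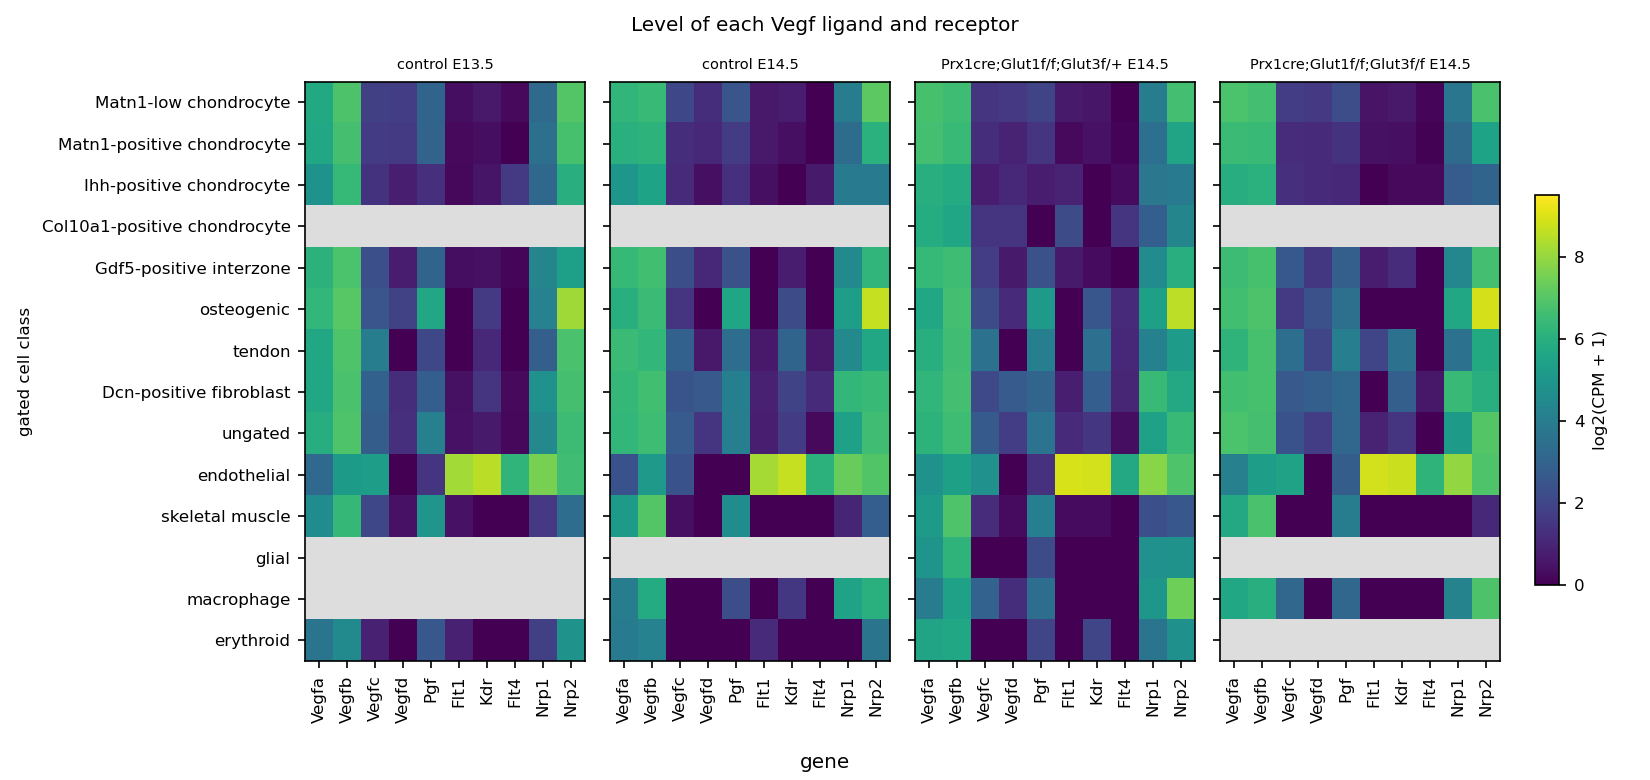
Level of each of the 10 members in log2(CPM + 1) (colour) by cell class and library; grey marks classes with fewer than 50 cells, except endothelium, which is drawn throughout. Flt1, Kdr and Flt4 are coloured almost only in endothelium, and Nrp2 is strongest in osteogenic cells at 283, 402, 373 and 469.6 CPM.

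The comparison of endothelial with skeletal cells asks which side of the ligand and receptor axis each tissue holds. A gene was counted when it had at least 20 UMIs over both groups and differed by at least 2-fold, and all 10 members had enough UMIs. In endothelium of the E13.5 control, 5 members were past 2-fold higher and 3 lower, against 26.9% of 14636 genes in either direction (1849 higher, 2085 lower, median log2 0.00). For the E14.5 control, 5 members were past 2-fold higher and 2 lower, against 25.9% of 14723 genes in either direction (2050 higher, 1769 lower, median log2 0.00). For the Glut3f/+ library, 6 members were past 2-fold higher and 2 lower, against 27.6% of 14905 genes in either direction (2441 higher, 1671 lower, median log2 0.00). For the Glut3f/f library, 7 members were past 2-fold higher and 2 lower, against 31.5% of 14783 genes in either direction (2911 higher, 1748 lower, median log2 0.00); with TMM scaling the split over all genes there was 2396 to 2367. The members on the endothelial side were the 3 kinases and Nrp1 in all 4 libraries. Log2 ratios were 10.35, 9.21, 10.24 and 10.30 for Flt1, 9.19, 9.19, 8.86 and 9.35 for Kdr, 7.30, 9.49, 8.13 and 9.78 for Flt4 and 3.73, 3.42, 3.76 and 4.44 for Nrp1. Vegfc was on the same side, at 3.48, 1.06 (-4.26 to 3.56), 3.89 and 4.62, where the E14.5 control again rests on 1 UMI. Nrp2 differed by 0.01, 0.63, 1.06 and 1.08. On the skeletal side were Vegfa, at -2.65, -3.97 (-9.27 to -1.49), -1.71 and -2.43, and Vegfb, at -1.58, -1.10, -1.04 and -1.18. Ligand Vegfa and its receptor Kdr thus lay on opposite sides of this comparison in all 4 libraries. Pgf rests on few endothelial UMIs, 1, 0, 1 and 4. It was the other lower member of the E13.5 control, at -2.23 (-7.54 to 0.25), stood at -0.94 (-6.25 to 1.56) in the Glut3f/+ library, and at 1.33 (-0.56 to 2.71) in the Glut3f/f library, where it changed sign under other settings.

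Genes that respond to Vegf or act in endothelial Notch signalling were higher in endothelium in 20 of 23, 20 of 22, 21 of 23 and 23 of 23 list genes with enough UMIs, with none lower and medians of 5.22, 5.35, 5.45 and 6.29 against 0.00 for all genes. Where a group had 3 or fewer UMIs, the counting interval follows the ratio. Sox17, an arterial transcription factor, had log2 ratios of 11.57 (9.67 to 14.65), 10.72, 12.50 (10.62 to 15.57) and 11.92 (10.34 to 14.23), Plvap, a component of endothelial fenestrae, 10.74, 11.53, 11.52 and 12.03, and the guidance receptor Robo4 11.25 (9.33 to 14.33) in the E13.5 control and 12.06 (10.15 to 15.13) in the Glut3f/f library. Aplnr, the apelin receptor, had 62 against 0 UMIs in the E13.5 control, 13.60 (11.05 to 18.94) in the E14.5 control and 11.57 in the Glut3f/+ library. Dll4, the Notch ligand of tip cells, had 10.58 (8.79 to 12.99) in the E14.5 control. This list is marked by its endothelial expression, so its direction describes the gate. Intracellular Vegf signalling genes gave 5 higher and 2 lower of 24, 5 higher and 4 lower of 24, 6 higher and 5 lower of 24 and 8 higher and 2 lower of 24, with medians of 0.04, 0.14, 0.19 and 0.48. Among them Ptprb, a phosphatase of endothelial receptors, had 12.37 (10.48 to 15.44) and 12.59 (10.70 to 15.65) in the Cre libraries. Lymphatic genes gave 3 higher and 1 lower of 4, 1 higher and 1 lower of 3, 1 higher and 1 lower of 3 and 2 higher and 1 lower of 4 (medians 3.43, 0.00, 0.00 and 0.70). The lymphatic chemokine Ccl21a led in the E13.5 control, at 9.69 (8.001 to 12.04). It had 30 endothelial UMIs there and 0 in each library of E14.5.

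HIF targets and regulators leaned to the skeletal side: 3 higher and 8 lower of 19, 4 higher and 6 lower of 19, 3 higher and 8 lower of 19 and 3 higher and 8 lower of 19, with medians of -0.91, -0.50, -0.74 and -0.62. Bnip3, a mitophagy receptor, stood at -4.39 (-6.66 to -2.84) in the E13.5 control and -3.41 (-5.69 to -1.86) in the E14.5 control. Neuropilin partners gave 3 higher and 6 lower of 12, 4 higher and 2 lower of 12, 4 higher and 3 lower of 12 and 5 higher and 5 lower of 12 (medians -1.04, 0.00, -0.26 and -0.60). The semaphorins Sema3d and Sema3c were lower at E13.5, at -3.99 (-9.30 to -1.51) and -3.13. Antiangiogenic genes gave 4 higher and 4 lower of 10, 4 higher and 4 lower of 10, 4 higher and 3 lower of 10 and 4 higher and 2 lower of 10 (medians -0.10, 0.00, 0.19 and -0.30). Cnmd, the vessel inhibitor of cartilage and itself a gating marker, had -5.90 (-8.95 to -4.05) in the E13.5 control. Other angiogenic ligands gave 2 higher and 1 lower of 9, 2 of 9 higher, 2 of 9 higher and 5 higher and 2 lower of 9 (medians 0.00, 0.44, 0.46 and 1.001). Genes that process Vegfc and Vegfd gave 1 of 6 lower, 1 of 6 higher, 2 higher and 2 lower of 6 and 1 higher and 2 lower of 6 (medians 0.21, 0.00, 0.21 and 0.53). Adamts3, the protease that activates Vegfc, had 0 against 682 UMIs in endothelium against skeletal cells of the E13.5 control. In genes with 0 UMIs on one side the value was set at the bound given by 3 UMIs, or at 0 where that bound lay on the other side, which is why the all-gene median is 0.00.

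From Matn1-positive to Ihh-positive chondrocytes, the E13.5 control had 2 of 7 members with enough UMIs lower and none higher, against 7.98% of 12478 genes in either direction (388 higher, 608 lower, median -0.08). The E14.5 control had 3 of 8 members with enough UMIs lower and none higher, against 17.8% of 13717 genes in either direction (592 higher, 1853 lower, median -0.14), the Glut3f/+ library 2 of 7 members with enough UMIs lower and none higher, against 15.4% of 13769 genes in either direction (562 higher, 1559 lower, median -0.11), and the Glut3f/f library 1 of 7 members with enough UMIs lower and none higher, against 17.5% of 13881 genes in either direction (488 higher, 1948 lower, median -0.19). TMM scaling raised the last median by 0.12. The lower members were Pgf and Vegfd at E13.5, Vegfa, Vegfd and Nrp2 in the E14.5 control, Pgf and Nrp2 in the Glut3f/+ library and Nrp2 in the Glut3f/f library. Of these, Vegfd in the E14.5 control rests on 1 UMI (-7.19 to 0.70) and Pgf in the Glut3f/+ library on 3. Nrp2 was the only member past the fold in all 3 libraries of E14.5.

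HIF targets gave 2 of 17 lower, 3 of 19 lower, 0 of 19 and 1 higher and 1 lower of 19 in this stage comparison, with medians of -0.04, -0.44, -0.13 and -0.17. Egln3, an oxygen sensor that is itself a HIF target, was lower in Ihh-positive cells of the controls, at -1.70 and -3.17 (-6.23 to -1.31), and Car9 in the E14.5 control, at -2.40 (1.79 against 9.44 CPM). Neuropilin partners gave 2 higher and 3 lower of 11, 2 higher and 4 lower of 12, 2 higher and 5 lower of 12 and 1 higher and 4 lower of 12 (medians -0.11, -0.56, -0.72 and -0.48). Sema3c was lower, at -2.32 in the E14.5 control and -1.96 in the Glut3f/+ library, and Plxnd1, a semaphorin receptor, was higher at 1.52, 1.87 and 1.63 in the first 3 libraries. Endothelial response genes gave 3 higher and 1 lower of 11, 3 higher and 2 lower of 14, 3 higher and 1 lower of 14 and 1 higher and 4 lower of 14 (medians -0.33, -0.03, 0.16 and -0.73). Hey1, a Notch target, was higher at 1.47, 2.17 and 2.19 in the first 3 libraries, and the netrin receptor Unc5b at 1.15, 2.08, 2.38 and 1.85 in all 4. The other lists were antiangiogenic, 1 of 9 lower, 3 of 10 lower, 3 of 10 lower and 2 of 10 lower, and other angiogenic ligands, 2 higher and 2 lower of 8, 2 higher and 2 lower of 9, 1 higher and 3 lower of 8 and 1 higher and 2 lower of 8. Intracellular signalling gave 2 of 23 higher, 1 of 23 higher, 2 of 23 lower and 2 of 23 lower, processing 2 higher and 1 lower of 5, 1 higher and 1 lower of 5, 1 higher and 1 lower of 6 and 1 higher and 2 lower of 6, and lymphatic 0 of 1, 1 of 3 lower, 1 higher and 1 lower of 3 and 2 of 3 lower.

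Between the Cre libraries and the E14.5 control, which asks how the family differs where glucose transporters are labelled as deleted, few members passed 2-fold in the 5 classes counted. In Matn1-low chondrocytes 0 of 7 members with enough UMIs did so in the Glut3f/+ library, against 3.3% of 12706 genes (171 higher, 248 lower, median -0.13), and 0 of 7 in the Glut3f/f library, against 5.22% of 12801 genes (187 higher, 481 lower, median -0.15). Matn1-positive chondrocytes had 0 higher and 1 lower of 9 in the Glut3f/+ library, against 3.65% of 14748 genes (287 higher, 251 lower, median -0.10), and 0 of 9 in the Glut3f/f library, against 6.56% of 14836 genes (384 higher, 589 lower, median -0.17). The lower member was Flt1, at -1.56 (-2.94 to -0.35, 8 against 23 UMIs), from 0.186 and 0.551 CPM. Erythroid cells gave 0 and 1.17 CPM from 0 and 1 UMIs, so this Flt1 could not be told apart from free RNA. In Ihh-positive chondrocytes 0 of 4 passed in the Glut3f/+ library, against 5.49% of 10426 genes (284 higher, 288 lower, median -0.06), and 1 of 4, Nrp1, was lower in the Glut3f/f library, against 12.2% of 10544 genes (402 higher, 880 lower, median -0.19). Interzone cells had 0 of 6 in the Glut3f/+ library, against 4.03% of 11739 genes (122 higher, 351 lower, median -0.12), and 0 of 6 in the Glut3f/f library, against 8.45% of 11053 genes (193 higher, 741 lower, median -0.11). Endothelium had 0 of 6 in the Glut3f/+ library, against 12.2% of 5484 genes (507 higher, 162 lower, median 0.05), and 1 of 7, Vegfc, higher in the Glut3f/f library, against 12% of 5531 genes (500 higher, 165 lower, median 0.09). In none of these 5 classes did more than 1 member pass the fold. In classes not counted here, Pgf passed it in fibroblasts and osteogenic cells and Vegfa and Nrp2 in macrophages, among others. The share over all genes was not taken for those classes.

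The split of all genes into higher and lower moved with the scaling. With TMM it was 240 to 188 and 295 to 330 in Matn1-low, 350 to 193 and 517 to 391 in Matn1-positive and 343 to 217 and 580 to 576 in Ihh-positive chondrocytes of the Glut3f/+ and Glut3f/f libraries, and 153 to 262 in interzone cells of the Glut3f/+ library. DESeq2 size factors gave 244 to 171 and 295 to 330 in Matn1-low chondrocytes, and for the Glut3f/f library 534 to 369 in Matn1-positive and 577 to 577 in Ihh-positive chondrocytes. A total without hemoglobin, mitochondrial and ribosomal protein genes gave 219 to 202 and 238 to 376 in Matn1-low chondrocytes, and 503 to 666 in Ihh-positive chondrocytes of the Glut3f/f library. The median of all genes shifted under TMM by 0.12 and 0.16 in Matn1-low chondrocytes, by 0.16 in Matn1-positive and 0.21 in Ihh-positive chondrocytes of the Glut3f/f library, and by 0.12 in interzone cells of the Glut3f/+ library. Under DESeq2 the corresponding chondrocyte shifts were 0.14, 0.16, 0.18 and 0.20, and under the reduced total 0.13 in the last of these. None of the Vegf member ratios beyond counting error changed sign under these 3 scalings.

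**Figure D4:**
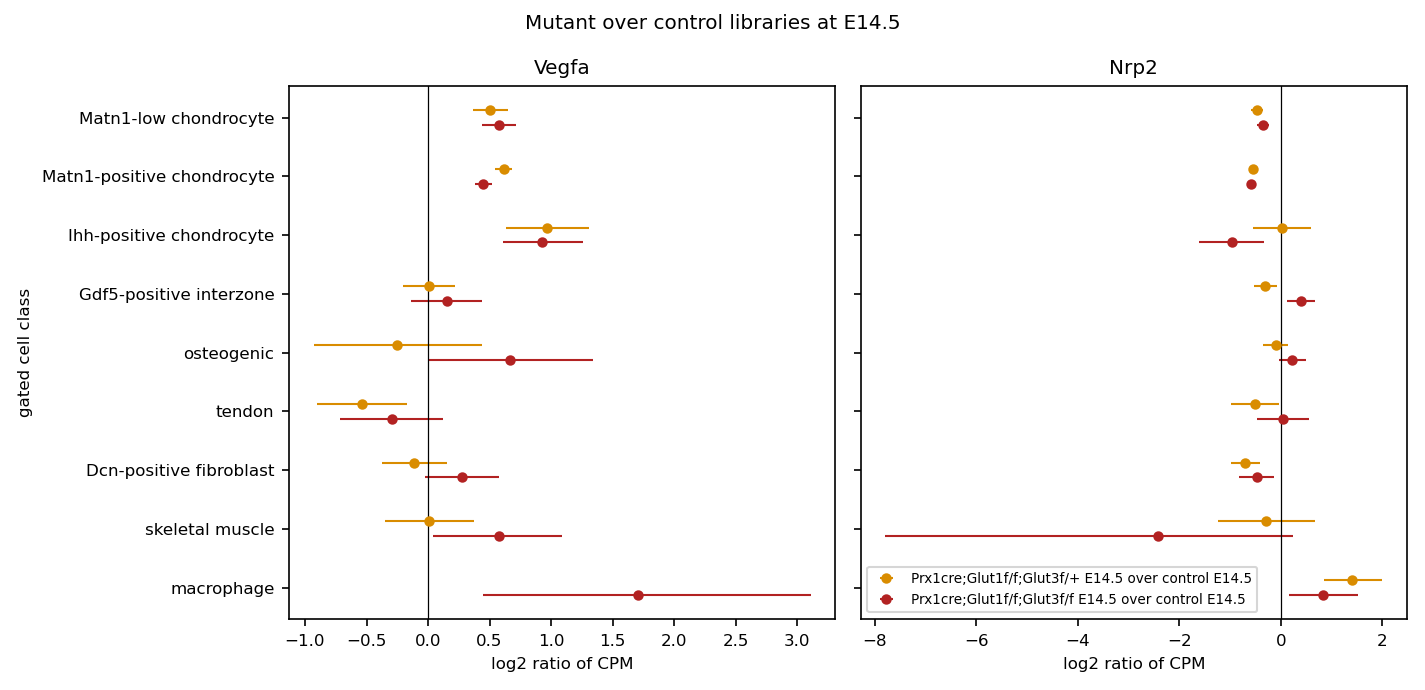
Log2 ratio of Vegfa and of Nrp2 in the Glut3f/+ and Glut3f/f libraries over the E14.5 control (horizontal axis) by cell class. Bars are exact conditional 95% intervals of the UMI sums, and classes with under 20 UMIs over both groups are omitted. In Matn1-positive chondrocytes Vegfa lies at 0.61 and 0.45 and Nrp2 at -0.55 and -0.59.

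The median of the HIF list lay above that of all genes in the chondrocytes of the Cre libraries, although most of its genes did not pass the fold. Past the fold in Matn1-low chondrocytes were 2 of 19 higher in the Glut3f/+ library and 2 of 19 higher in the Glut3f/f library, with medians of 0.33 and 0.33 against -0.13 and -0.15 for all genes. Matn1-positive chondrocytes had 2 of 19 higher and 2 of 19 higher, with medians of 0.34 and 0.17. Ihh-positive chondrocytes had 4 of 17 higher and 4 of 16 higher, with 0.53 and 0.46. Interzone cells had 1 higher and 1 lower of 19 and 1 of 19 higher, with -0.05 and -0.04, and endothelium 2 of 12 higher and 1 higher and 1 lower of 12, with -0.07 and -0.26. The list median was thus above the all-gene median in the chondrocyte stages, close to it in interzone cells and below it in endothelium. Vegfa had too few endothelial UMIs to be counted there, 18 and 11 against 1, with ratios of 2.73 (0.07 to 8.11) and 1.96 (-0.82 to 7.39).

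Car9 stood at 43.3 against 9.44 CPM in Matn1-positive chondrocytes of the Glut3f/+ library and the E14.5 control, a log2 ratio of 2.20, and at 1.31 in the Glut3f/f library (23.4 against 9.44 CPM). Matn1-low chondrocytes gave 3.01 and 2.09, Ihh-positive chondrocytes 4.0004 and 2.90 and interzone cells 1.93 in the Glut3f/+ library. Adm, the vasoactive peptide adrenomedullin, was higher at 2.61 (3.96 against 0.647 CPM) and 1.96 in Matn1-positive and 1.89 and 1.58 in Matn1-low chondrocytes. Egln3 in Ihh-positive chondrocytes gave 3.36 (1.37 to 6.48) and 3.01 (1.02 to 6.13) from 27 against 2 UMIs in each, and Ndrg1 2.17 (17.5 against 3.88 CPM) in the Glut3f/f library. Epas1, which encodes HIF-2 alpha, was lower in interzone cells of the Glut3f/+ library, at -2.31.

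Antiangiogenic genes moved unevenly. Past the fold in Matn1-positive chondrocytes were 1 of 10 higher and 1 of 10 higher in the Glut3f/+ and Glut3f/f libraries (medians 0.06 and -0.28), in Matn1-low 1 of 10 lower and 1 of 10 lower (medians -0.22 and -0.28), in Ihh-positive 1 higher and 1 lower of 8 and 2 higher and 2 lower of 8 (medians -0.14 and -0.18) and in interzone cells 0 of 9 and 1 higher and 1 lower of 9 (medians -0.04 and -0.06). Serpinf1, the vessel inhibitor PEDF, was higher in Ihh-positive chondrocytes at 2.14 (92.1 against 20.9 CPM) and 3.32 (208 against 20.9 CPM), and in Matn1-positive chondrocytes of the Glut3f/f library at 1.37. Tnmd, a tendon inhibitor of vessels, was lower in Matn1-low chondrocytes at -1.74 and -1.91 and higher in Matn1-positive ones of the Glut3f/+ library at 1.12.

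Other angiogenic ligands were lower where they passed the fold in Matn1-positive and Ihh-positive chondrocytes: 1 of 9 lower and 3 of 9 lower in the former (medians -0.26 and -0.48), 2 of 5 lower and 3 of 5 lower in the latter (medians -0.38 and -1.16). Matn1-low chondrocytes had 0 of 8 and 0 of 9 (medians -0.27 and -0.58) and interzone cells 1 of 7 lower and 1 of 7 lower (medians -0.54 and -0.66). Ccn1, a matricellular ligand, in Ihh-positive chondrocytes was 164 against 467 CPM, -1.51, and 115 against 467 CPM, -2.02. Ccn2, its relative in the growth plate, gave -2.27 and -2.45 in the same cells and -1.83 (17.3 against 61.4 CPM) in Matn1-positive chondrocytes of the Glut3f/f library. Pdgfb, the ligand that recruits mural cells, was lower in Matn1-positive chondrocytes at -1.68 (9 against 28 UMIs) and -1.09.

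Endothelial response and Notch genes measured in chondrocytes gave 1 higher and 1 lower of 16 and 1 higher and 1 lower of 16 in the Matn1-positive class (medians 0.05 and -0.21) and 0 of 7 and 2 of 6 lower in Ihh-positive cells. Hes1, a Notch target, was lower in the Glut3f/f library at -1.40 (112 against 295 CPM) in Matn1-positive and -2.84 (39.6 against 285 CPM) in Ihh-positive chondrocytes. Neuropilin partners gave 0 of 12 and 0 of 12 in Matn1-positive and 1 of 11 higher and 3 of 11 lower in interzone cells. Plxna4, a semaphorin receptor subunit, was lower in the Glut3f/f library at -1.38 in Matn1-low and -1.22 in interzone cells. Intracellular signalling genes had 0 of 23 and 0 of 23 in Matn1-positive and 1 of 21 lower and 3 of 21 lower in Ihh-positive cells, and Rcan1, a calcineurin regulator, stood at -1.42 in Ihh-positive cells of the Glut3f/+ library and -1.56 in interzone cells of the Glut3f/f library. Processing genes gave 0 of 6 and 0 of 6 and lymphatic genes 1 of 3 higher and 1 of 3 higher in Matn1-positive chondrocytes, where Reln was the higher gene at 1.38 and 1.64.

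In endothelium, the response and Notch list had 2 of 22 higher in the Glut3f/+ library and 3 of 22 higher in the Glut3f/f library, with medians of 0.13 and 0.32 against 0.05 and 0.09 for all genes. Jag1, a Notch ligand, was at 24 against 1 UMIs and 21 against 1 UMIs over the E14.5 control, log2 3.15 (0.53 to 8.51) and 2.89 (0.26 to 8.26). Ptprb was higher in both Cre libraries, at 1.69 (152 against 47.0 CPM) and 1.82 (166 against 47.0 CPM). Antiangiogenic genes gave 1 higher and 1 lower of 6 and 2 higher and 1 lower of 7, and the cartilage marker Cnmd was lower at -1.52 and -2.72, as the chondrocyte markers in this gate were. Serpinf1 was higher there at 2.60 and 2.06. Processing genes gave 2 higher and 1 lower of 3 and 1 of 3 higher; Pcsk5 had 23 against 0 UMIs and 22 against 0 UMIs. The remaining lists gave 1 of 14 higher and 3 of 16 higher (intracellular), 1 of 4 higher and 1 of 4 higher (neuropilin partners) and 1 of 5 lower and 0 of 5 (other ligands).

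With age in the controls, the Matn1-positive class had 1 member higher, Flt1 at 1.66 (23 against 2 UMIs, interval -0.36 to 4.79, below the erythroid level at both ages), and 1 lower, Pgf, of 8 with enough UMIs, against 11.4% of 14083 genes (702 higher, 903 lower, median -0.14). TMM gave 920 to 651 over all genes and shifted their median by 0.17. Fibroblasts had 3 of 7 higher, Nrp1, Pgf and Vegfd, and 0 lower, against 8.85% of 11634 genes (491 higher, 539 lower, median -0.08). Whether these 2 classes differ in the number of members past the fold was not tested. In Matn1-positive chondrocytes the HIF list had 2 of 19 higher (median 0.23), with Epas1 at 2.10 and Ndrg1 at 1.53. The antiangiogenic list had 4 higher and 1 lower of 10 (median 0.62) there and 3 of 9 higher (median 0.59) in fibroblasts, where Col18a1, the source of endostatin, stood at 2.12 and Thbs2 at 2.11. Neuropilin partners had 1 higher and 2 lower of 12 and 1 of 8 higher, with Sema3d in Matn1-positive chondrocytes at -2.13 (8.36 against 36.7 CPM). The ligand Angpt1 was lower in both, at -1.49 and -2.83, among 3 of 9 lower and 2 of 7 lower other ligands. Response genes had 1 higher and 4 lower of 15 and 4 of 12 higher, with Cd34 in fibroblasts at 3.06 (41.6 against 4.99 CPM). Intracellular, processing and lymphatic lists had 1 higher and 1 lower of 23, 0 of 6 and 1 higher and 1 lower of 3 in Matn1-positive chondrocytes and 0 of 22, 0 of 5 and 0 of 1 in fibroblasts.

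Likeness of pattern was measured as Pearson's r of log2(CPM + 1) over 47 profiles of a class in a library with at least 50 cells, among 9723 genes. The profiles share libraries and differ in depth, so r is given as a description. Nearest to Vegfa were Pcdh11x (0.8504), Tob1 (0.834) and Pmp22 (0.832), and to Vegfb Atf2 (0.897), Smarcc1 (0.894) and Zbtb12 (0.893). Vegfc had Gimap9 (0.836), Plk2 (0.831) and Mtmr11 (0.829), and Pgf Tmem119 (0.797), Dusp10 (0.772) and Eya1 (0.769). Vegfd stayed below 20 CPM in every profile and was not compared. Flt1 was nearest to Robo4 (0.974), Btnl9 (0.972) and AU021092 (0.972), Kdr to Klhl4 (0.942), Dll4 (0.918) and Ecscr (0.908) and Flt4 to Adgrl4 (0.960), Sox18 (0.958) and Ssu2 (0.956). The kinases had the highest r, with genes of endothelial profiles, among them Robo4, Dll4 and Sox18. Nrp1 was nearest to Tgfbr2 (0.860), Pros1 (0.858) and Snrk (0.857) and Nrp2 to Pdlim2 (0.834), Maf (0.821) and Ripk3 (0.802).

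The promoters of Vegfa and of its receptors Flt1 and Kdr are shown because Vegfa was higher in chondrocytes where the HIF targets Car9 and Adm were, and because both kinases lay in the endothelium. In interzone cells of the Glut3f/+ library Car9 was higher as well, while Vegfa did not differ beyond counting error. All 10 members matched a start in the RefSeq promoter table (GRCm38.p6), and the 250 bases before each start were searched on both strands for the letters ACGTG, which read from the other strand give CACGT, and for GCGTG, whose reverse complement is CACGC, both cores of HIF motifs. The ETS motif cores searched were CCGGAA, with the reverse complement TTCCGG, and also CAGGAA, with the reverse complement TTCCTG. Of all 32851 promoters, 16.6% held ACGTG, 28.2% GCGTG, 12.03% CCGGAA and 25.7% CAGGAA, counted by window. Among the members, counted by gene over any window, 1, 7, 1 and 2 of 10 did, and as Vegfa and Pgf have 2 windows each the shares are not in the same unit. Vegfa has windows at chr17:46032378-46032627, upstream of the gene, and chr17:46025164-46025413, inside it, both on the minus strand. Both HIF matches of Vegfa lie in the internal window, 67 bases of which lie in the coding sequence at chr17:46025347-46025543. The matches fall in that coding stretch. Annotated exon sequence covers 218 bases of the window. Flt1 at chr5:147726012-147726261 and Kdr at chr5:75978456-75978705 are on the minus strand as well. The Flt1 window held no ETS core. Flt4, also highest in endothelium, is not shown, and its window held no match to any of the searched letters. Capitals mark the searched letters, and a match is a description of the sequence only.
Vegfa upstream window: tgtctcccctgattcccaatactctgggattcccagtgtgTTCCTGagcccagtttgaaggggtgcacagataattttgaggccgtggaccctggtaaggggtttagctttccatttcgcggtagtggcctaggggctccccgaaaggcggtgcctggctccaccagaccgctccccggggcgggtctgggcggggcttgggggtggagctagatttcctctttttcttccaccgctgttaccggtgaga
Vegfa internal window: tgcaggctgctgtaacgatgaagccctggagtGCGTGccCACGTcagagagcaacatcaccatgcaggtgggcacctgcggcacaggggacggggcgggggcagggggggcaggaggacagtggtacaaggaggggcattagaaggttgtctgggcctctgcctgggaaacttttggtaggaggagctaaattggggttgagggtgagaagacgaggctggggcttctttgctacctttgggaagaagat
Flt1 window: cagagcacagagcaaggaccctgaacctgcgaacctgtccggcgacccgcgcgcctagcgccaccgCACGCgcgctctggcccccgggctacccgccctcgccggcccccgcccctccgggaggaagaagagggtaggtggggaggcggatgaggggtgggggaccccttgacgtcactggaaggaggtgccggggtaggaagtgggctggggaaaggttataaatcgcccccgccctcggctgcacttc
Kdr window: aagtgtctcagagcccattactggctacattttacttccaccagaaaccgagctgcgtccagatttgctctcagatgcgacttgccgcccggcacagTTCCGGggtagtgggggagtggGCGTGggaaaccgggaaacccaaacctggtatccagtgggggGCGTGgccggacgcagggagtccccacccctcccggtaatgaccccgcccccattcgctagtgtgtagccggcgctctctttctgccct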

How the data were processed

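All 4 libraries were 10x 3' single-cell libraries, 1 per group. The counts are UMIs per gene and cell barcode, deposited as filtered Cell Ranger 6.1.2 matrices (version per the file headers) on mm10. The submitters' processing notes name Seurat 3 for later steps, of which none is in the files. The cell filter (200 to 6000 detected genes, mitochondrial share up to 10%) removed few cells, and doublets were kept unless a cell passed gates of 2 non-skeletal lineages. Gates counted markers with at least 1 UMI: 6 of 10 for chondrocytes, 3 of 6 for tendon, osteogenic and glial cells, 4 of 7 for fibroblasts (with at least 2 Dcn UMIs), 3 of 7 for endothelium, 5 of 9 for erythroid cells, 3 of 8 for macrophages and for muscle, and 4 of 6 for mural cells. The skeletal group sums the chondrocyte, interzone, osteogenic, tendon and fibroblast gates. UMIs were summed per class and divided by the class total. Level intervals are exact Poisson and ratio intervals exact conditional binomial, at 95%.

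Gene lists were HIF targets and regulators (20 genes), endothelial Vegf response and Notch (23), intracellular Vegf signaling (25), neuropilin partners (12), antiangiogenic (10), other angiogenic ligands (10), lymphatic (6) and Vegfc and Vegfd processing (6). The members and lists were chosen with earlier results of these data known. List genes were named when they were past 2-fold with at least 20 UMIs over both groups, at most 4 of the largest ratios in each direction per comparison; genes 0 on one side count under this rule with their UMIs. Ptprb in endothelium of the Glut3f/f library and Unc5b by stage in the E13.5 control were added outside this rule, after values were seen. Gene positions came from GENCODE M21, which matched 32158 of 32285 identifiers (99.6%). Python 3.11.15, numpy 2.4.6, scipy 1.17.1, pandas 2.3.3, matplotlib 3.10.9, R 4.3.3, edgeR 4.0.16 (TMM factors) and DESeq2 1.42.0 (size factors) were used.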

Additional observations from a re-analysis of the deposited data

Results flagged for a closer look

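Nrp2 moved in opposite directions in different cell classes, in both Cre libraries against the E14.5 control. Macrophages were higher, with log2 ratios of 1.40 in the Glut3f/+ library and 0.83 in the Glut3f/f library. Matn1-low chondrocytes were lower, at -0.47 and -0.36, as were Matn1-positive chondrocytes, at -0.55 and -0.59, and fibroblasts, at -0.70 and -0.48. The difference between the classes was not tested.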

How the results depend on the processing

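The limits are those of 1 library per group. No paired analysis was possible because each group has 1 library, and leaving out a replicate was not possible. Sex and genotype, and sex and age, cannot be told apart. Classes come from marker gates that deeper cells pass more often, endothelium had 33 to 76 cells, and free RNA adds UMIs to all classes.

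Gates set after thinning to 2000 UMIs moved Vegfa in Matn1-positive chondrocytes to 37.1, 60.3, 85.2 and 75.9 CPM. Its log2 ratios there became 0.50 (Glut3f/+ library), 0.33 (Glut3f/f library) and 0.70 (E14.5 over E13.5), and the stage ratio of the Glut3f/f library -0.41. Kdr in endothelium over skeletal cells became 10.14, 10.45, 9.35 and 9.88. Pgf, Ihh-positive over Matn1-positive, turned from -1.30 to 0.41 in the Glut3f/+ library. Of 590 log2 values of members, each beyond counting error as counted and recomputed under 1 setting, 4 changed sign, those of Nrp1, Vegfb and Nrp2 in Ihh-positive chondrocytes given above.

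TMM scaling gave Vegfa 43.6 CPM in the E13.5 control, 103 in the Glut3f/+ library and 96.3 in the Glut3f/f library, with log2 ratios of 0.71 and 0.60 against the E14.5 control and 0.57 with age. DESeq2 size factors gave 0.69 and 0.63. A total without hemoglobin, mitochondrial and ribosomal protein genes gave Vegfa 66.3, 90.8, 146 and 131 CPM, with ratios of 0.69 and 0.53, and endothelial Kdr 486, 564, 632 and 570.2 CPM. The mean of CPM over cells gave Vegfa 67.6 CPM in the E14.5 control and a Glut3f/+ ratio of 0.53, and Kdr 437, 534 and 602 CPM in all but the E14.5 control. Endothelial Pgf over skeletal cells in the Glut3f/f library turned from 1.33 to -0.11 with that mean and to -0.26 without the 5% deepest cells. Without those cells, Vegfa in Ihh-positive chondrocytes of the Glut3f/f library was at 0.52.

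With at least 100 UMIs, endothelial response genes past the fold numbered 11, 10 and 15 in the E13.5 control, the E14.5 control and the Glut3f/f library. Counts over all genes differed by more than 1.5 times in 12 of 12 comparisons with this filter and in 12 of 12 with none. In Matn1-positive chondrocytes the Glut3f/+ library had 287 higher and 251 lower with at least 20 UMIs, 845 higher and 1081 lower with no filter and 84 higher and 69 lower with at least 100 UMIs. For the Glut3f/f library these were 384 higher and 589 lower, 1011 higher and 1457 lower and 147 higher and 234 lower. Over all settings, 2750 of 3350 CPM values stayed within their counting interval and 600 moved; of 1060 log2 values 955 stayed, 102 moved and 3 reversed. Only values past 2-fold with at least 20 UMIs could be counted as reversed, and the 3, all of Pgf, had intervals that included 0, so they are not among the 4 sign changes given above. Counts of genes past the fold stayed within 1.5 times in 147 of 174, counts for lists in 250 of 320 and counts of members in 146 of 174.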

Other observations

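Within Matn1-positive chondrocytes, cells with a Car9 UMI were set against cells without, a split chosen after values were seen. Such cells made up 3.41%, 7.06%, 20.6% and 13.4% of the class. Vegfa stood at 155 CPM in cells with Car9 and 79.8 CPM in cells without in the Glut3f/+ library, and at 132 and 79.5 CPM in the Glut3f/f library. The log2 ratios, given without counting intervals, were 0.23, 0.40, 0.95 and 0.73, positive in every library and largest in the Cre libraries. The first rests on the 3.41% of cells with Car9 in the E13.5 control, and whether it exceeds counting error was not tested. Nrp2 went the other way, at -1.40, -0.04, -1.13 and -0.78, with little difference in the E14.5 control. Vegfb gave -0.25, 0.19, 0.25 and 0.09 and Nrp1 -0.60, -0.99, -1.08 and -0.52. Cells with Car9 were deeper, with medians of 8897, 9785, 11249 and 10750.0 UMIs against 7455, 8440.0, 8009.5 and 8058.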
